A study of Mus musculus with 16 samples.

Results

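The galectin family is described here in hearts of 18-week-old C57BL/6 mice that lack estrogen receptor α (ERα) in cardiomyocytes. The members were the 6 genes Lgals1, Lgals3, Lgals3bp, Lgals4, Lgals8 and Lgals9, found by their gene symbol, which gave 10 of the 25697 probes on the array. The family was chosen by its genotype difference in these same arrays, that of Lgals3, so the genotype comparison of its members is a description and carries no test. The comparisons of sex, and of whether the genotype difference depends on sex, were not the ground for choosing the family. They were still planned with earlier results of these data known. The mice fell into 4 groups, each of 4 mice with 1 Illumina MouseRef-8 array per mouse: female cs-ERα-/-, female WT, male cs-ERα-/- and male WT. The cs-ERα-/- mice carried ERα alleles with a floxed exon 3 and a Cre recombinase driven by the α-MHC promoter, which is active in cardiomyocytes, and WT mice were ERα flox/flox. No group carried Cre without the floxed alleles, so the loss of ERα and the presence of Cre cannot be told apart. No mouse was treated. RNA came from pulverized heart tissue of all cell types together, so more cells of a type and more RNA per cell cannot be told apart.

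Galectins are small proteins that bind β-galactosides on glycoproteins and glycolipids. They are made in the cytosol, leave the cell by an unconventional route and crosslink sugar chains at the cell surface and in the matrix, and some also bind the sugars of damaged endosomes and lysosomes. Galectin-1 forms a dimer of single lectin domains, galectin-3 joins its lectin domain to a tail that lets it oligomerize, and galectins 4, 8 and 9 carry a pair of linked lectin domains. In heart tissue galectin-3 is best known as a product of macrophages and a marker of fibrosis and heart failure. The product of Lgals3bp is not a galectin but a secreted glycoprotein that galectin-3 binds.

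The results turn on Lgals3 for genotype and on Lgals4 for sex, so the 250 bases before the annotated start of each are shown, from RefSeq on build GRCm38.p6, both on the plus strand. Lgals3 lies at chr14:47373610-47373859 and Lgals4 at chr7:28833544-28833793. Capitals mark the half-site of the estrogen response element, GGTCA, and the Sp1 box, GGGCGG, on either strand.
Lgals3: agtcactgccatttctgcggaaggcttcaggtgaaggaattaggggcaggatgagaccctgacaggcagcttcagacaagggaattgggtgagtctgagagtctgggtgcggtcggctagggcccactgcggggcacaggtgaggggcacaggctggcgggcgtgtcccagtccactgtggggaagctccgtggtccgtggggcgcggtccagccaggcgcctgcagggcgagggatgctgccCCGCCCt
Lgals4: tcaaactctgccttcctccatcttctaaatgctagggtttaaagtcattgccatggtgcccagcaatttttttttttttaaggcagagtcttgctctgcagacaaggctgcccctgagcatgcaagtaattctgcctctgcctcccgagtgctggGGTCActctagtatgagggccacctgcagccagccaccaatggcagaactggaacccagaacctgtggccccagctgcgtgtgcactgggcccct
The Lgals3 window held 1 Sp1 box, starting at -7 from the start of the gene, and no half-site. The Lgals4 window held 1 half-site, at -95, and no Sp1 box. Windows were found for 5 of the 6 members, all but Lgals1, and Lgals8 was the other member with a half-site (2 matches). The full palindrome GGTCANNNTGACC was in none of the 5. Among 32851 promoters of the same length, 35.2% held a half-site, 32.7% an Sp1 box and 0.0639% the palindrome. These matches are letters in a window and not evidence of binding.

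Values are log2 signals after background correction and quantile normalization, and a difference of 1 is a doubling. Tests covered the 12246 probes that were detected (p-value under 0.05) by 3 or more arrays in at least 1 group of 4, and a call means an adjusted p under 0.05, by Benjamini-Hochberg, in a limma model of the 4 groups. Of the 10 galectin probes 9 passed, and each was detected on all 16 arrays, so that every member was measured in every mouse. The third Lgals4 probe, which the files tie to another RefSeq record than the other 2, was detected on 0 of 16 arrays. Arrays had 11492 to 12610 detected probes and correlated with each other at 0.988 to 0.995. Of the 458 probes called for genotype 65.1% were higher in cs-ERα-/- hearts (77.1% of the 131 called with median scaling), and of the 155 called for sex 50.3% were higher in females (65.8% of the 79 called with median scaling). Eif2s3y, a gene of the Y chromosome, was detected in 0 of 8 females and 8 of 8 males. Both Esr1 probes, which report ERα itself, were undetected on all 16 arrays, so that the deletion could not be checked on them. The paper measured ERα RNA in heart tissue by qRT-PCR and reports it reduced in knockouts of both sexes. The cardiomyocyte genes Myh6 and Tnni3 were detected on every array. The array is the unit of replication, and 4 mice per group limit the precision.

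**Figure D1:**
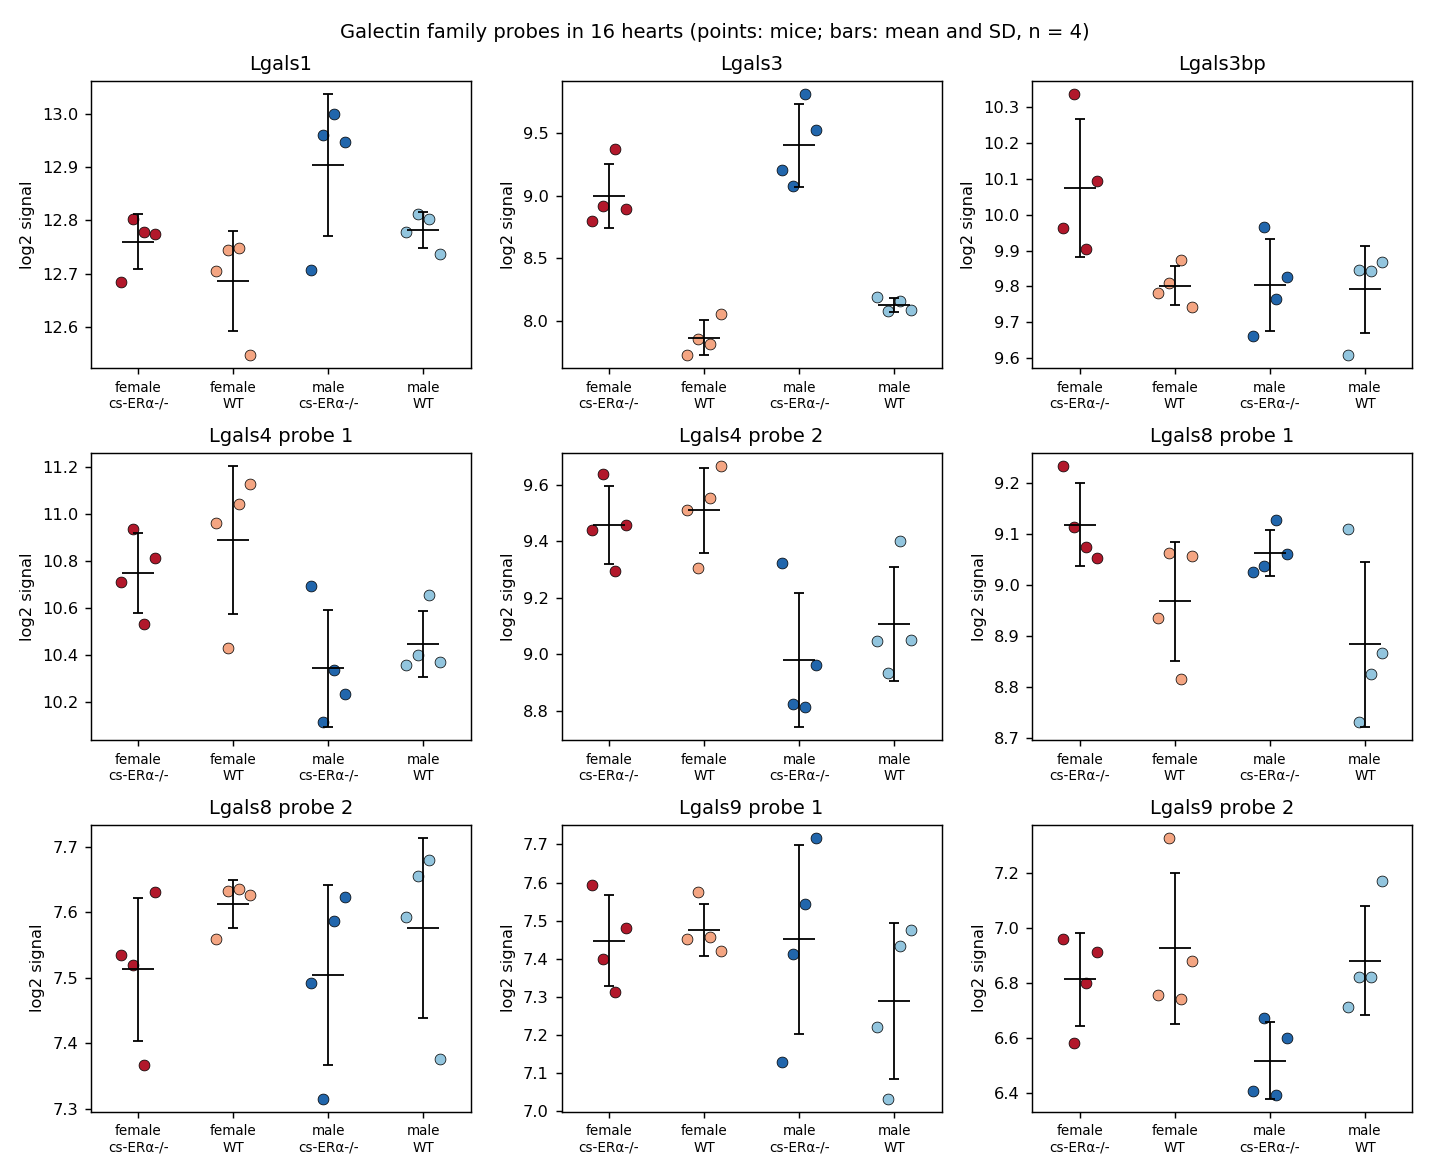
Log2 signal (vertical axis) of the 9 galectin probes detected on all 16 arrays, by group, with a point for each mouse and the group mean and SD (n = 4). Lgals3 separates all cs-ERα-/- mice from all WT mice, and both Lgals4 probes lie mostly higher in females.

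Lgals3, which encodes galectin-3, was about 2.30 times higher in cs-ERα-/- than in WT hearts, and no other member came near this size. Its log2 signals were 8.80, 8.92, 9.37 and 8.89 in female cs-ERα-/- hearts, against 7.73, 7.86, 7.82 and 8.06 in female WT hearts. In males they were 9.20, 9.08, 9.81 and 9.53 in cs-ERα-/- hearts, against 8.19, 8.08, 8.16 and 8.08 in WT hearts. The lowest cs-ERα-/- mouse of either sex thus stood above the highest WT mouse. The difference was 1.20 on the log2 scale (standard error 0.09), at 1.13 in females and 1.28 in males (standard error 0.13 each). The spread among mice was wider in the cs-ERα-/- groups, with an SD of 0.26 in female and 0.33 in male cs-ERα-/- hearts, against 0.14 in female and 0.06 in male WT hearts (n = 4 each). Lgals3 was the 1 galectin probe of 9 that passed the limma threshold for genotype, where 3.74% of all probes did, 2.43% higher and 1.31% lower, and the 1 probe whose 8 cs-ERα-/- and 8 WT mice did not overlap, where 0.596% of all probes did not. Since this difference chose the family, nothing is read from these counts. Without male WT replicate 1, 2 galectin probes passed.

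The other members differed between genotypes by 0.24 or less on the log2 scale. Lgals1, the prototype galectin, which fibroblasts and vessel cells make in quantity, averaged 12.76 ± 0.05 in female cs-ERα-/- and 12.69 ± 0.09 in female WT hearts, and 12.90 ± 0.13 in male cs-ERα-/- and 12.78 ± 0.03 in male WT hearts (SD, n = 4 each). Its difference was 0.10 (standard error 0.04), and the genotypes overlapped. The 2 probes of Lgals8, whose product marks damaged endosomes, went opposite ways. Probe 1 had a difference of 0.16 (standard error 0.06) and probe 2 of -0.09 (standard error 0.07). Over the 16 mice the deviations of these 2 probes from their group means correlated at 0.01, so they give no single value for the gene.

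Lgals9, whose product is a ligand of the immune receptor Tim-3, also had 2 probes that disagreed on genotype. Probe 1 had a difference of 0.07 (standard error 0.08) and probe 2 of -0.24 (standard error 0.10). By probe 2, male cs-ERα-/- hearts read 6.41, 6.67, 6.39 and 6.60, against 6.71, 6.82, 6.82 and 7.17 in male WT hearts. All 4 male cs-ERα-/- mice were below all 4 male WT mice by this probe, a separation that 6.88% of all probes showed in one direction or the other. By probe 1 the same mice overlapped, at 7.13 to 7.72 in male cs-ERα-/- and 7.03 to 7.48 in male WT hearts. The deviations of the 2 Lgals9 probes from their group means correlated at 0.47 over 16 mice.

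**Figure D2:**
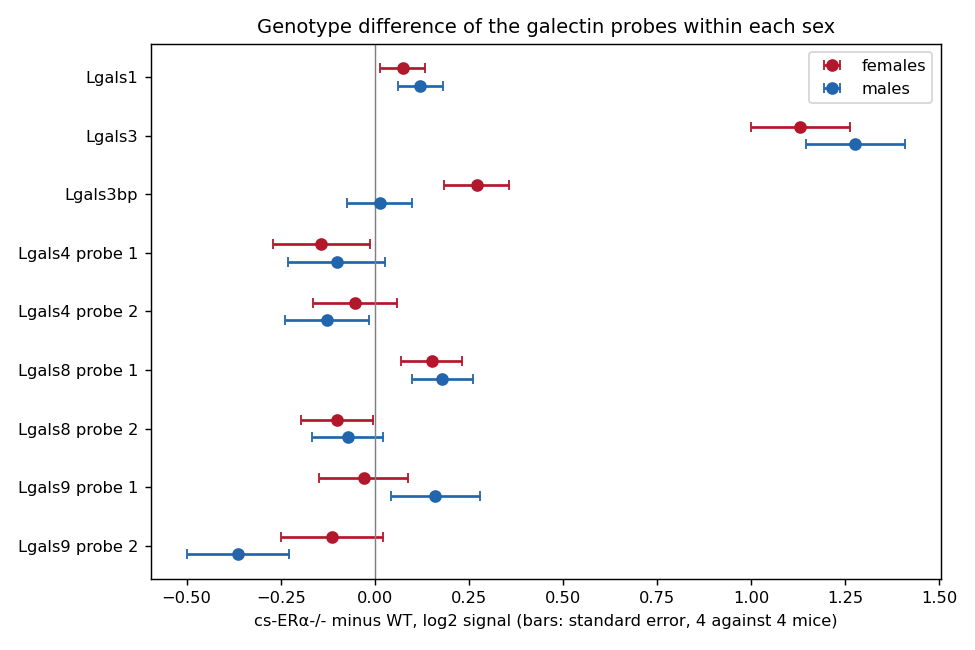
Difference in log2 signal between cs-ERα-/- and WT hearts (horizontal axis) for each galectin probe, in females and in males, with the standard error from the model of all 16 arrays. Lgals3 lies at 1.13 in females and 1.28 in males, and every other probe lies between -0.36 and 0.27.

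Whether the genotype difference depended on sex was asked with the interaction of the 2 factors. By limma, 0 of the 9 galectin probes and 0% of all 12246 probes passed for the interaction, and 1 of the 9 and 456 of all probes had an unadjusted p under 0.05. An ordinary linear model also gave 0 galectin probes. For Lgals3 the female difference minus the male difference was -0.15 (standard error 0.19, limma adjusted p = 0.999). The 1 probe with an unadjusted p under 0.05 was that of Lgals3bp.

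Lgals3bp encodes a secreted glycoprotein of the scavenger receptor family that binds galectins and that interferon is known to induce. Its log2 signals were 9.96, 10.34, 9.90 and 10.09 in female cs-ERα-/- hearts, against 9.78, 9.81, 9.87 and 9.74 in female WT hearts. In males they were 9.66, 9.97, 9.77 and 9.83 in cs-ERα-/- hearts, against 9.61, 9.85, 9.84 and 9.87 in WT hearts. All 4 female cs-ERα-/- mice stood above all 4 female WT mice, a separation that 5.99% of all probes showed, and the male groups overlapped. The difference between genotypes was 0.27 in females and 0.01 in males (standard error 0.09 each), and the interaction of 0.26 (standard error 0.12) did not pass (limma adjusted p = 0.999). The highest mouse, female cs-ERα-/- replicate 2, also stood apart in the summed linear signal of 19 interferon-responsive genes, at 13470, against 7666 to 8960 in the other female cs-ERα-/- mice, 7851 to 9265 in female WT, 7243 to 8672 in male cs-ERα-/- and 7243 to 8279 in male WT mice. Without that mouse the interaction of Lgals3bp was 0.17 (standard error 0.11), and with each array left out in turn it ran from 0.17 to 0.32. The part of the interferon-responsive genes in the Lgals3bp values was not tested.

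Of these interferon-responsive genes, 1 of 19 was called higher in cs-ERα-/- hearts, Ifit2 (0.33, limma adjusted p = 0.00309; 0 of 19 with median scaling), and 1 of 19 higher in females, Usp18, which removes ISG15 from proteins (0.36, limma adjusted p = 0.0029). Over all probes 2.43% were called higher in cs-ERα-/- hearts and 0.637% higher in females. In this list and those below, a gene counted as called if any of its probes was. The lists were drawn up with earlier results of these data known, so their counts are descriptions. The median difference of the list was 0.08 for genotype and 0.15 for sex, beside -0.01 and 0.00 over all probes.

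Between sexes, Lgals4 was the only galectin called by the limma model of the 4 groups. It encodes galectin-4, known chiefly from the epithelium of the gut, where it binds sulfated glycolipids and organizes apical membranes. By probe 1 its log2 signals were 10.71, 10.94, 10.53 and 10.81 in female cs-ERα-/- hearts, against 10.69, 10.12, 10.34 and 10.23 in male cs-ERα-/- hearts. In WT mice they were 10.96, 10.43, 11.04 and 11.13 in females, against 10.36, 10.40, 10.66 and 10.37 in males. By this probe 6 of the 8 females stood above the highest male, and the sexes overlapped through female cs-ERα-/- replicate 3 and female WT replicate 2, the lowest of their groups, and male cs-ERα-/- replicate 1 and male WT replicate 3, the highest of theirs. The difference was 0.42 (standard error 0.09), or 1.34 times higher in females (limma adjusted p = 0.0166).

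Probe 2 of Lgals4 gave the same picture. Its log2 signals were 9.44, 9.64, 9.30 and 9.46 in female cs-ERα-/- hearts, against 9.32, 8.82, 8.82 and 8.96 in male cs-ERα-/- hearts. In WT mice they were 9.51, 9.31, 9.55 and 9.67 in females, against 9.05, 8.93, 9.40 and 9.05 in males. The difference was 0.44 (standard error 0.08), or 1.36 times higher in females (limma adjusted p = 0.00375), and again 6 of 8 females stood above the highest male. The 2 probes correlated at 0.94 over the 16 mice and at 0.87 once group means were removed, so that the mice ranked alike by both. Both probes measure the same RNA of the same mice and are not separate replicates.

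**Figure D3:**
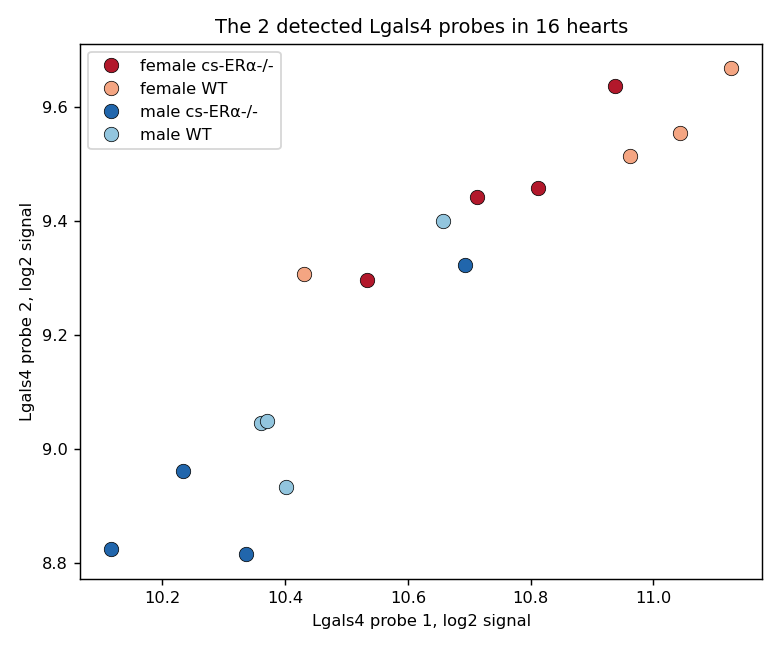
Log2 signal of Lgals4 probe 2 (vertical axis) against probe 1 (horizontal axis), a point for each of 16 mice, coloured by group. Females lie toward the upper right and males toward the lower left, with 2 males, cs-ERα-/- replicate 1 and WT replicate 3, among the females.

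Both Lgals4 probes were called for sex, which makes 2 of the 9 galectin probes and 1 of the 6 genes, where 1.27% of all probes were called, 0.637% higher in females and 0.629% lower. For 0 of the 9 galectin probes did the 8 females and 8 males not overlap, where 0.327% of all probes did not. Both calls held with each of the 16 arrays left out in turn. They depended on the variance model: probe 1 missed the threshold without the intensity trend, and both missed it in an ordinary linear model without moderation. By genotype Lgals4 differed by -0.12 for probe 1 and -0.09 for probe 2 (standard error 0.09 and 0.08), with overlapping mice. The female minus male difference was 0.40 in cs-ERα-/- and 0.44 in WT hearts by probe 1, and 0.48 in cs-ERα-/- and 0.40 in WT hearts by probe 2. Some mouse strains carry Lgals6, a near-identical copy of Lgals4, and probe sequences were not used here, so which copy each of the 3 probes reports cannot be told apart.

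Markers of epithelium were near background in these hearts. Of 7 markers on the array 3 were tested, Cdh1, Cldn7 and Krt8, with log2 signals of 5.48 to 6.56 over all mice, and Krt18, Krt19, Vil1 and Cldn4 did not pass the detection filter. The summed linear signal of the 3 was 168 to 185 in female cs-ERα-/-, 170 to 219 in female WT, 172 to 177 in male cs-ERα-/- and 158 to 225 in male WT hearts, and 0 of the 3 were called for sex (limma, 0 of 3 at an unadjusted p under 0.05). Of 11 fibroblast markers tested, 3 were called higher in females (1 to 4 over the alternatives run) and 0 lower: Lum, a collagen-binding proteoglycan (0.56, limma adjusted p = 0.000231), Tcf21, a transcription factor of cardiac fibroblasts (0.34, limma adjusted p = 0.0286) and Mfap5, a protein of microfibrils (0.34, limma adjusted p = 0.0304). Over all probes 0.637% were called higher in females. The other 8 markers did not pass. Among them Dcn, Col1a1 and Fbln2 had differences of -0.03, -0.03 and -0.04, and the rest were positive, the largest Thy1 (0.23, limma adjusted p = 0.0524). Of all 11 markers 8 had a positive sign, with a median difference of 0.07. The summed linear signal of the 11 was 26420 to 28230 in female and 24340 to 28800 in male cs-ERα-/- hearts, and 23050 to 25180 in female and 22670 to 25010 in male WT hearts, so that the sexes overlapped in both genotypes. Dcn, the brightest of the 11 at log2 13.97 to 14.38 over all mice, makes up most of this sum. The sum therefore cannot show the sex differences of Lum, Tcf21 and Mfap5. The part of these markers in the Lgals4 difference was not tested.

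The female minus male difference of Lgals3 was -0.41 in cs-ERα-/- and -0.26 in WT hearts (standard error 0.13 each), and their mean of -0.34 (standard error 0.09) did not pass (limma adjusted p = 0.0834). In WT hearts all 4 females stood below all 4 males, a separation that 5.05% of all probes showed. It passed without 1 of 2 mice, with a limma adjusted p of 0.0324 without male cs-ERα-/- replicate 2 and 0.0228 without female cs-ERα-/- replicate 3. Lgals1 had a sex difference of -0.12 (standard error 0.04, limma adjusted p = 0.212) and Lgals3bp of 0.14 (standard error 0.06, limma adjusted p = 0.329). The Lgals8 and Lgals9 probes lay between 0.02 and 0.17, and none passed.

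Within 1 genotype, with 4 females against 4 males, limma called 0 of the 9 galectin probes in cs-ERα-/- hearts and 0 of 9 in WT hearts, where 0.278% and 0.367% of all probes were called, and an ordinary linear model called 0 in each. At an unadjusted p under 0.05 there were 6 of 9 in cs-ERα-/- and 2 of 9 in WT hearts, and 1049 of all 12246 probes in each. A galectin probe was called in cs-ERα-/- hearts without male WT replicate 3 or without male cs-ERα-/- replicate 1, and a galectin probe in WT hearts without male WT replicate 3 or without female WT replicate 2.

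**Figure D4:**
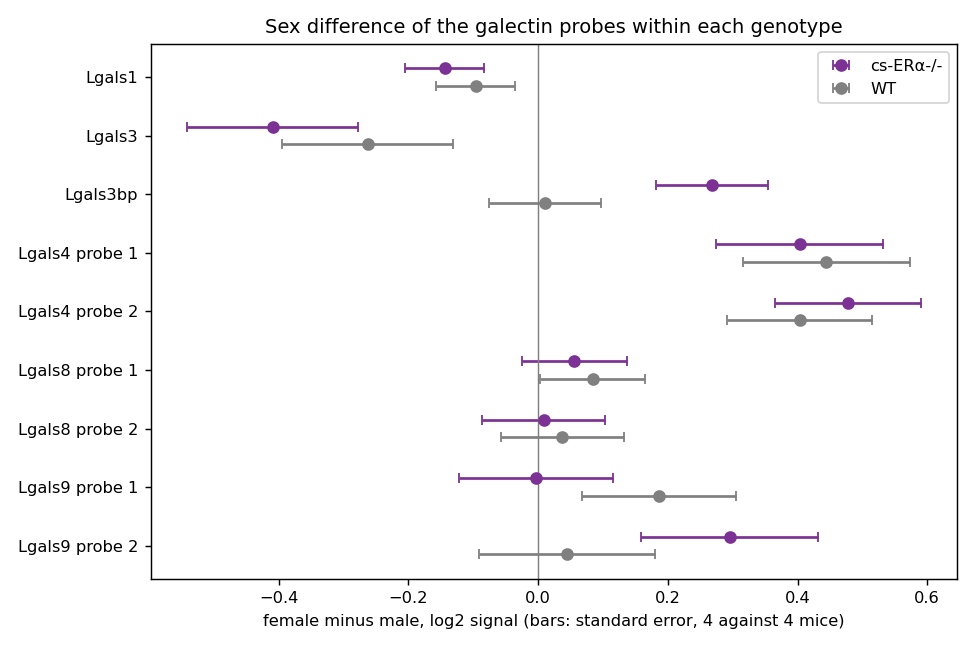
Difference in log2 signal between females and males (horizontal axis) for each galectin probe, in cs-ERα-/- and in WT hearts, with the standard error from the model of all 16 arrays. Both Lgals4 probes lie at 0.40 to 0.48 in both genotypes, Lgals3 lies at -0.41 in cs-ERα-/- and -0.26 in WT hearts, and Lgals3bp lies at 0.27 in cs-ERα-/- and 0.01 in WT hearts.

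Markers of macrophages and other myeloid cells, which make galectin-3, moved with genotype in the same direction as Lgals3. All 18 markers tested had a positive sign, with a median difference of 0.36 beside -0.01 over all probes. Of the 18, 11 were called higher in cs-ERα-/- hearts (5 with median scaling) and 0 lower, where 2.43% of all probes were called higher. The list was drawn up with earlier results of these data known. The paper's own genotype list from these arrays already holds several of the 11, so this count is a description. The 11 included Lyz1 and Lyz2, lysozyme genes so alike that their probes may not separate them (0.48, adjusted p = 0.00013, and 0.50, adjusted p = 0.000405, limma), Mrc1, the mannose receptor (0.38, limma adjusted p = 0.00036), and Laptm5, a lysosomal protein of blood cells (0.34, limma adjusted p = 0.0004). For both lysozyme genes these are values of the brightest probe. Another probe gave 0.73 for Lyz2 (limma adjusted p = 1.57e-06). Another Lyz1 probe, detected on 3 arrays, gave 0.70 (limma adjusted p = 0.00271). Adgre1, which encodes F4/80, was also among the 11. The 5 markers on the array that did not pass the detection filter were Ctss, Ptprc, Itgam, Msr1 and Ccr2. The summed linear signal of the 18 markers was 26640 to 28690 in female cs-ERα-/- hearts, against 18180 to 22380 in female WT hearts, and 25740 to 35470 in male cs-ERα-/- hearts, against 21330 to 25880 in male WT hearts. The groups overlapped only among males. Lyz1, the brightest of the 18 at log2 13.05 to 14.09 over all mice, weighs most in this sum. For sex, 0 of 18 markers had a positive sign, and 1, Gpnmb, a glycoprotein of lipid-laden macrophages, was called lower in females (-0.51, limma adjusted p = 0.0378), a count that was 0 to 2 with an array left out and 0 with median scaling. Over all probes 0.629% were called lower in females. The part of these markers in the Lgals3 differences was not tested.

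Among mice of one group, Lgals3 tended to be higher where the summed myeloid markers were higher, but the relation did not pass correction. This relation was computed after the data were seen. In the linear sum Lyz1, the brightest marker, weighs most, so the relation does not weigh the 18 markers equally. With group means removed, Pearson's r was 0.62 over 16 mice (permutation p = 0.0271, adjusted p = 0.57 over 21 relations) and Spearman's rho was 0.53 (permutation p = 0.0604, adjusted p = 0.635). Without the 2 mice farthest from the median of Lgals3, r was 0.51. It was 0.74 among the 8 cs-ERα-/- and 0.46 among the 8 WT mice.

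**Figure D5:**
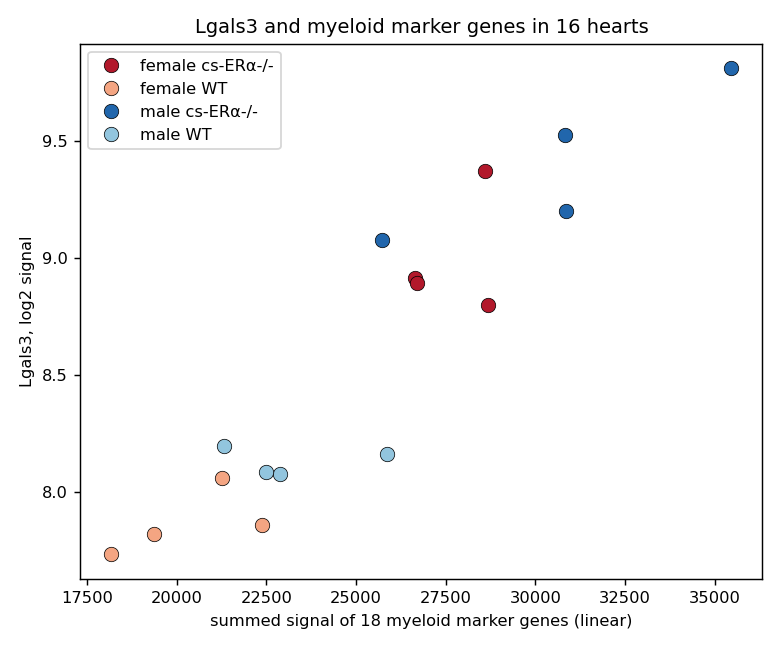
Log2 signal of Lgals3 (vertical axis) against the summed linear signal of 18 myeloid marker genes (horizontal axis), a point for each of 16 mice, coloured by group. Lyz1, the brightest marker, weighs most in the sum. The male cs-ERα-/- mouse with the highest marker sum, 35470, also has the highest Lgals3, 9.81, and all 8 WT mice lie below the 8 cs-ERα-/- mice on the Lgals3 axis.

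Over the 15 pairs of members, each given by its brightest probe with group means removed, 0 passed adjustment over the pairs, and 0 had an unadjusted permutation p under 0.05 by Pearson's r and 1 by Spearman's rho. Pearson's r ran from -0.51 to 0.46. The pair with the lowest p was Lgals1 and Lgals3bp, at r = 0.46 (permutation p = 0.0695, adjusted p = 0.645 over the pairs) and rho = 0.49 (permutation p = 0.0388, adjusted p = 0.581), and without the 2 mice farthest from the median of Lgals1 r was 0.33. The pair with the largest r in size was Lgals1 and Lgals4, at r = -0.51 (permutation p = 0.172, adjusted p = 0.645 over the pairs) and rho = -0.34 (permutation p = 0.279, adjusted p = 0.631), and without the 2 mice farthest from the median of Lgals1 it was -0.06, so that it rested on those mice. In 5 of the 15 pairs the sign of r differed between cs-ERα-/- mice alone and WT mice alone.

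Among 8580 other named genes, the 5 whose deviations from group means were most like those of Lgals3 over the 16 arrays were Eif1a, Xist, Ppil3, Kctd9 and Pclo (r of 0.79 to 0.86). For Lgals4 they were Gjc1, Pomp, Zfp90, Nectin2 and Ilkap (0.78 to 0.87), for Lgals1 H2ac20, Cdk10, Klhl15, Blvrb and Plcb3 (0.84 to 0.92), for Lgals3bp Piwil2, Srp68, Kif22, Slc15a3 and Mif (0.78 to 0.85), for Lgals8 Sgcb, Osmr, Zfyve27, Celf1 and Limd1 (0.81 to 0.89) and for Lgals9 Zfp607a, Atf7ip, Zfp296, Rrm1 and Mto1 (0.79 to 0.84). Both values of a pair come from the same array, and these are the highest of many coefficients, given as a description.

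The remaining galectins gave little signal. Lgalsl, a galectin-related gene, was detected on all 16 arrays and had a difference of 0.11 for genotype (standard error 0.08), which did not pass in limma, and -0.06 for sex (standard error 0.08, limma adjusted p = 0.801). Lgals2 was detected on 1 array, Lgals7 on 3 and Lgals12 on 0, so none of these was tested, and Lgals5, Lgals6 and Grifin carry no probe in the annotation used.

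RNA of proteins that galectins bind and of enzymes that build their sugar ligands gave few calls among the genes tested. These were 13 of 20 listed partners and 17 of 25 listed genes of N-glycan branching. Of 13 galectin partners tested, 1 was called higher in cs-ERα-/- hearts, where 2.43% of all probes were, and 0 were called with median scaling. The 1 called was P4hb, the protein disulfide isomerase that galectin-9 binds at the cell surface (0.28, standard error 0.05, limma adjusted p = 0.00119). By limma 4 of the 13 had an unadjusted p under 0.05 for genotype, as had 2152 of all 12246 probes (1581 for sex). The median difference of the 13 was 0.01 for genotype, and 7 had a positive sign. Their summed linear signal was 32320 to 34440 in male cs-ERα-/- and 29570 to 31870 in male WT hearts. In females it was 32020 to 35440 in cs-ERα-/- and 30730 to 32390 in WT hearts, which overlapped. Bright genes such as P4hb and Lamp1 weigh most in this sum. Lamp1 and Lamp2, lysosomal membrane proteins that carry galectin-3 ligands, had differences of 0.05 and 0.09 for genotype (limma adjusted p = 0.509 and 0.282). None of the 13 was called for sex (limma, 1 at an unadjusted p under 0.05, and 0 by an ordinary linear model). Of 17 genes of N-glycan branching tested, which make the chains that galectins bind, limma called 0 for genotype and 0 for sex, with 2 at an unadjusted p under 0.05 in each, and an ordinary linear model called 0. Their median difference was 0.00 for genotype and -0.04 for sex, beside -0.01 and 0.00 over all probes. Mgat5, the branching enzyme whose product galectin-3 binds best, did not pass the detection filter.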

How the data were processed

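Heart RNA of 16 mice was hybridised to Illumina MouseRef-8 arrays. The authors scanned them, averaged the beads of each probe in Genome Studio and deposited a non-normalized signal intensity (linear, background-subtracted) with a detection p-value against negative control beads for each array, and a normalized intensity from a cubic spline, which was used as an alternative. The 16 arrays were run on 2 BeadChips per the study's methods, but no label names the chip of an array, so no chip term could be fitted.

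Signals were processed with neqc (offset 16) of limma 3.58.1 in R 4.3.3, and a linear model of the 4 group means, with an intensity trend for the variances, gave KO minus WT, female minus male and their interaction, adjusted over all 12246 kept probes. Of 25697 probes, 1719 had no gene symbol. The model was tested on simulated data. Correlations used 100000 permutations within groups. Plots used Python 3.11.15 and matplotlib 3.10.9. The members, gene lists (other galectins, partners, N-glycan branching, interferon-responsive genes and cell markers) and tests were chosen with earlier results of these data known. The genes named are all member and other galectin probes, up to 4 called genes of a list with the smallest p, and the 5 genes most like each member; markers that were not tested, and single genes of a list, are named beyond this rule. Alternatives were no background correction, median scaling, the normalized values of the authors, no filter or a filter on every group (10956 probes), no intensity trend, an ordinary linear model, the replicate number as a block, and each array left out in turn. No source ties a replicate number to a litter, chip or day.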

Additional observations from a re-analysis of the deposited data

Results flagged for a closer look

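In 36 groups of 4 mice, 9 probes in 4 groups each, a mouse stood apart from the others of its group 3 times by Dixon's ratio of gap to range, against a critical value of 0.829, and chance alone picks about 1 in 20 groups. Lgals3bp was low in male WT replicate 1, at 9.61 against 9.84 to 9.87 in the other 3 mice (ratio 0.911). Probe 1 of Lgals4 was high in male WT replicate 3, at 10.66 against 10.36 to 10.40 (ratio 0.864). Probe 2 of Lgals8 was low in female WT replicate 1, at 7.56 against 7.63 to 7.64 (ratio 0.875). Lgals7, which encodes a galectin of stratified epithelium, was left untested for low signal, but its probe was detected on 2 cs-ERα-/- arrays and 1 WT array, a difference that was not tested.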

How the results depend on the processing

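Lgals3 was 1.06 to 1.28 higher in cs-ERα-/- hearts under 9 alternatives and 1.14 to 1.26 higher with each array left out, and 1 galectin probe was called for genotype in each of the 8 alternatives with a test. Galectin probes called for sex numbered 1 without the intensity trend and 0 by an ordinary linear model. The difference of Lgals4 probe 1 stayed 0.4237 there (adjusted p = 0.0729 and 0.145), and that of probe 2 stayed 0.4404 (adjusted p = 0.0612 in the ordinary model); the fit alone changed. Median scaling left 0 of 13 partners and 5 of 18 myeloid markers called higher for genotype. Myeloid markers called lower in females numbered 0 with median scaling, without a filter, without the trend and by the ordinary model, and 2 with the replicate block. Median scaling turned the interaction, called nowhere, to 0.0502 for Lgals1, 0.025 and 0.0407 for probe 1 of Lgals4 and Lgals8, and 0.0198 for Lgals8 probe 2. With an array left out, the galectin probes called ran from 1 to 2 for genotype and from 0 to 1 for sex within cs-ERα-/- and within WT hearts, partners higher for genotype from 1 to 2, and myeloid markers lower in females from 0 to 2. The interaction then ran from -0.1939 to 0.0755 and from -0.0232 to 0.1891 for Lgals4 probes 1 and 2, and from -0.1035 to 0.0229 and from -0.0922 to 0.0373 for Lgals8 probes 1 and 2, and the sex difference of Lgals8 probe 2 from -0.0102 to 0.0473. The causes were not tested.

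Replicate numbers were not taken to pair the mice, since no source says so and not every same-numbered pair correlated over 0.1. Deviations correlated at -0.11 to 0.20 over all such pairs and at 0.11 to 0.20 for number 4, and 9 of 16 mice correlated best with their own number, a hint from the data and not from the design. With the replicate number as a block, 537 probes were called for genotype (458 without) and 178 for sex (155 without), and Lgals3 was called lower in females (-0.336, adjusted p = 0.0352).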

Other observations

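Of 11 fibroblast markers, 1 was called higher in cs-ERα-/- hearts, Dcn, which encodes decorin (0.18, limma adjusted p = 0.00753), a count that was 0 with median scaling and 1 to 3 with an array left out. Of 6 smooth muscle and pericyte markers 1 was called, Acta2, the smooth muscle actin (0.52, limma adjusted p = 0.00372). Acta2 was the 1 of the 6 with a positive sign, and the median difference of the 6 was -0.09. Over all probes 2.43% were called higher in cs-ERα-/- hearts. For genotype, limma called 0 of 9 endothelial, 0 of 9 cardiomyocyte, 0 of 3 epithelial and 0 of 3 neutrophil and lymphocyte markers, with 2, 0, 0 and 2 at an unadjusted p under 0.05.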
